A study of Homo sapiens with 15 samples.

Results

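GPM6A and GPM6B encode the glycoprotein M6 pair of the proteolipid family, membrane proteins that cross the membrane 4 times and are best known from the brain. They are 2 of the 58381 genes listed for each library of 5 sublines of VCaP, an established human prostate cancer cell line. Both were among the 19621 genes with enough counts to be tested. Both were matched by Ensembl identifier and described as a family. GPM6A was chosen by its measured counts, which were 0 in VCaP-T and high in the sublines resistant to enzalutamide (ENZ), and GPM6B as its family member. The GPM6A levels below are therefore a description without a test, and the tests concern GPM6B, nearby genes and gene lists.

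VCaP-T had received 10 nM testosterone over 7 months. VCaP-CT was derived from VCaP-T over 10 months at 0.1 nM testosterone. VCaP-CT-ER, named VCaP-CT-ET in the Methods, was derived from VCaP-CT under 10 µM ENZ, an antiandrogen drug. VCaP-CT-BR came from VCaP-CT under bicalutamide, an older antiandrogen, and VCaP-CT-BR-ER came from bicalutamide-resistant cells under ENZ. The sample labels give 10 nM testosterone for all 5 sublines, and the VCaP-CT-BR label names ENZ as well, following bicalutamide, so the culture conditions at harvest are those of the Methods only as far as stated there. VCaP-CT-ER against VCaP-CT is called the direct ENZ step below, and VCaP-CT-BR-ER against VCaP-CT-BR the second ENZ step. Each subline was represented by 3 libraries and by a single derivation, so treatment, time in culture and derivation cannot be told apart, and p-values measure the spread between libraries of one derivation. The libraries held between 33665716 and 46935279 counts, and their log2 expression correlated more closely within sublines (r of at least 0.991) than between them (at most 0.980).

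In neurons, GPM6A sits at the surface of growth cones and filopodia and is known to promote neurite and filopodium growth, and GPM6B is found in neurons and in oligodendrocytes. Neither gene is a usual marker of the prostate epithelium. Genes of that epithelium were expressed in the VCaP libraries. All 11 genes of a prostate luminal list, among them KLK3 and HOXB13, had more than 3 counts in every subline. That limit alone does not set an identity, since 11 of 13 neuronal genes also passed it in VCaP-T. By level the list was uneven. The means of KLK2 lay between 3360 and 14425 CPM over the sublines, and those of KRT8 between 230 and 968. Those of KLK3 lay between 14.1 and 3558 CPM, and those of FOLH1 between 1.77 and 43.9. The lowest mean of any other gene on the list was 88.4 CPM, for TMPRSS2 in VCaP-CT-ER. Markers of other cell types were mixed. The oligodendrocyte genes MOG and MAG, the neuronal genes DCX and SLC17A6 and the astrocyte gene S100B were listed at 0 in all 15 libraries, as was FLOT1, a broadly expressed gene. A listed 0 in all libraries alone therefore does not show that a gene was silent. Other markers of the same lists were expressed. In VCaP-CT-ER the myelin genes MBP and CNP stood at 77.1 ± 1.36 and 35.4 ± 0.299 CPM, the neuronal genes MAP2 and NCAM1 at 38.1 ± 3.12 and 29.0 ± 0.401, and the astrocyte gene SLC1A2 at 7.05 ± 0.336. Over the 5 sublines, the means of MBP lay between 77.1 and 86.7 CPM and those of CNP between 26.5 and 35.4. MAP2 was higher in VCaP-CT-BR, at 64.9 CPM, and in VCaP-CT-BR-ER, at 64.6. SLC1A2 had 6.67 CPM in VCaP-T and between 20.2 and 22.4 in the remaining sublines. NCAM1 was lower outside VCaP-CT-ER, at means between 1.52 and 6.98 CPM.

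GPM6A lies on the minus strand of chromosome 4 and spans 369731 bases (GRCh38, chr4:175632934-176002664), with 7040 bases of merged exons. GPM6B lies on the minus strand of the X chromosome and spans 167608 bases (chrX:13771031-13938638), with 5675 bases of merged exons. RefSeq start sites give 4 promoter windows for GPM6A and 2 for GPM6B, and 3 of them are shown because they contrast the outermost RefSeq start of each gene with an inner start of GPM6A, numbered from the outermost one. The counted GPM6A gene reaches further out than RefSeq start 1, so the window of that start lies within the counted gene. Each line holds the 250 bases before the start on the gene's own strand (GRCh38.p14). Capitals mark matches to 4 motifs chosen after the sequences were seen. They are the E-box CACGTG and the motif AGAACA, a hexamer of steroid hormone response elements. The TATA box was searched as TATAAA and the cAMP response element as TGACGTCA. Both strands were searched and none of these matches overlapped.
GPM6A start 1, chr4:176002394-176002643: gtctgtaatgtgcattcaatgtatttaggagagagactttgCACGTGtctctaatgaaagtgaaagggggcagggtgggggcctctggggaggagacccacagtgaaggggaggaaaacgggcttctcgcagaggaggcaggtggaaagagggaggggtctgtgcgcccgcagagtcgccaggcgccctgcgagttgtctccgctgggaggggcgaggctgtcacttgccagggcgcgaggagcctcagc
GPM6A start 3, chr4:175787390-175787639: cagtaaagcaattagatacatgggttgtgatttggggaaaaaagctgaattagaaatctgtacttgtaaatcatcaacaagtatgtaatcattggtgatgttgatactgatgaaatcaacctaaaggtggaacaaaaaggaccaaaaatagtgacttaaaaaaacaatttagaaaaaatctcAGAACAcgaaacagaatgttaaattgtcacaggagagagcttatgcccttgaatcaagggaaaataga
GPM6B start 1, chrX:13938639-13938888: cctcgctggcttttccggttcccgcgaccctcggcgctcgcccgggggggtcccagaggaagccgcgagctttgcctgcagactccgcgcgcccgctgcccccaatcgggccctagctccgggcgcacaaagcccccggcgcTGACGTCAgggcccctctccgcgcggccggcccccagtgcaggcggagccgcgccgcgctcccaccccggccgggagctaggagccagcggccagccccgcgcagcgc
The first window of GPM6B was dense in CpG, with 35 CpG sites, more than in 94.2% of 35116 RefSeq windows of the same length. The first window of GPM6A held 12 CpG sites, near the median of 11 over all windows, and the window of start 3 held 1. CACGTG occurred in 6.34%, AGAACA in 12.4%, TGACGTCA in 1.65% and TATAAA in 10.7% of all windows, so a match of the shorter motifs is common. The deposited counts cover all transcripts of a gene together and do not tell which start was used.

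GPM6A had no detectable transcript in VCaP-T and ranked among the higher genes in VCaP-CT-ER. The 3 VCaP-T libraries held 0, 0 and 0 counts, where 3 counts, taken as the limit that a count of 0 allows, correspond to between 0.0706 and 0.0825 CPM, which are counts scaled to the library total with the trimmed mean of M values (TMM). The VCaP-CT libraries held 8, 5 and 8 counts and the VCaP-CT-BR libraries 45, 41 and 30 counts. The VCaP-CT-ER libraries held 12674, 12676 and 11600 counts, and the VCaP-CT-BR-ER libraries held 1289, 1188 and 1279. Libraries of a subline thus lay closer to each other than to those of any other subline, and none of the 5 ranges overlapped, an order that was shown by 88 of the 19621 tested genes (0.448%), GPM6A included. In bulk samples, a larger share of expressing cells and more RNA per cell cannot be told apart.

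On the CPM scale, the mean level of GPM6A was 0.202 ± 0.0528 (SD, n = 3, as for all means here) in VCaP-CT and 272 ± 14.2 in VCaP-CT-ER. In the bicalutamide lineage it was 0.994 ± 0.222 in VCaP-CT-BR, while VCaP-CT-BR-ER reached 32.3 ± 1.11. Both ENZ-resistant sublines thus stood far above the subline from which they were derived. The ratio of means was 1342 for VCaP-CT-ER over VCaP-CT, and the ratio of single libraries lay between 1087 and 2023. It was 32.5 for VCaP-CT-BR-ER over VCaP-CT-BR, between 26.8 and 45.1 for single libraries. Against VCaP-T, with the mean floor of 3 counts per library in the denominator, the mean of GPM6A in VCaP-CT-ER was 3472-fold above that floor. The same ratio was 413-fold for VCaP-CT-BR-ER. The lowest bounds from single libraries were 3178-fold and 379-fold.

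**Figure D1:**
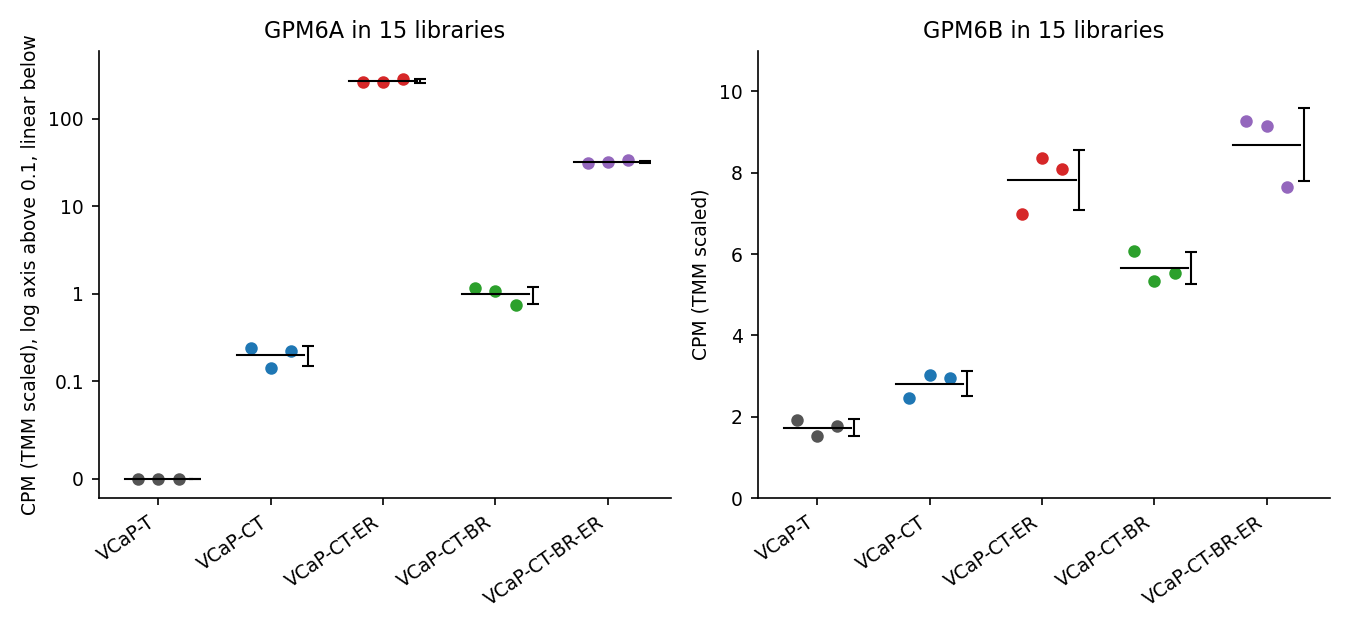
CPM of GPM6A (left, log axis above 0.1 CPM and linear below) and GPM6B (right, linear axis) in each of the 15 libraries. Points are libraries, horizontal lines are means of 3 libraries and bars are 1 SD. GPM6A is at 0 in VCaP-T and at a mean of 272 CPM in VCaP-CT-ER, while GPM6B lies between means of 1.74 and 8.69 CPM.

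The sublines followed the order VCaP-T, VCaP-CT, VCaP-CT-BR, VCaP-CT-BR-ER and VCaP-CT-ER. The lowest steps rested on few counts: the summed counts were 21 in VCaP-CT (exact Poisson interval 13.0 to 32.1) and 116 in VCaP-CT-BR (95.9 to 139), and these intervals cover counting error only. VCaP-CT-BR was 4.91-fold above VCaP-CT, with single-library ratios between 3.08 and 8.19. VCaP-CT-ER was 8.40-fold above VCaP-CT-BR-ER, with single-library ratios between 7.83 and 9.20. The step between both ENZ-resistant sublines thus had the narrower relative range of both ratios. This order describes the gene and tests nothing, since its levels chose it.

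Per length, GPM6A reached 38.6 RPKM (CPM per kilobase of merged exons) in VCaP-CT-ER, above 94.2% of the tested genes in that subline, with 1130 genes above it. In VCaP-CT-BR-ER it stood at 4.59 RPKM, above 62.5% of the tested genes. Its level was 0.0287 RPKM in VCaP-CT and only 0.141 RPKM in the bicalutamide-resistant VCaP-CT-BR, above 2.85% and 12.9%. Within both lineages GPM6A thus stood low among the tested genes before the ENZ step and higher after it. These places restate the levels that chose GPM6A and test nothing. With 0 counts in VCaP-T, it could enter the tested genes only through other sublines.

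The rule that chose GPM6A was repeated over all genes to give its place. At most 3 counts in each VCaP-T library and a mean of at least 1 CPM in both ENZ-resistant sublines was found for 31 genes, of which 15, GPM6A included, had under 1 CPM in each of the parents VCaP-CT and VCaP-CT-BR. GPM6A had the highest mean of the 31 in both of these sublines, and was the only one of them to reach 100 CPM in VCaP-CT-ER. That place depends on the limit of 3 counts, since 23 further genes had a highest VCaP-T library above 3 and at most 10 counts. Among these PCDH19, a protocadherin gene of the X chromosome named after its values were seen, held 0, 1 and 5 counts in the VCaP-T libraries. PCDH19 had 0.655 ± 0.108 CPM in VCaP-CT compared with 159 ± 4.24 in VCaP-CT-ER. In the bicalutamide lineage it had 0.845 ± 0.0384 CPM in VCaP-CT-BR, while VCaP-CT-BR-ER had 16.6 ± 0.441, so that it followed the same order of levels as GPM6A. The next by level of the 31, chosen here after their values were seen, were HOPX and GPC6. HOPX, an atypical homeobox gene, had 36.4 ± 4.16 CPM in VCaP-CT-ER against 17.0 ± 0.410 for VCaP-CT-BR-ER. GPC6, a glypican, had 29.0 ± 2.02 and 24.4 ± 0.448. Unlike GPM6A, GPC6 was at 7.83 ± 0.356 CPM in VCaP-CT and was highest in VCaP-CT-BR, at 33.1 ± 0.850. HOPX shared the lower level in VCaP-CT-BR-ER, as did 19 of the 31 genes including GPM6A. Of the 31 genes, 7 lay on chromosome 4, GPM6A included. Chromosome 4 held 3.68% of the tested genes, but the rule was run over all listed genes, so these figures have different bases. Among the 26655 genes with 0 counts in all VCaP-T libraries, 0 exceeded GPM6A in VCaP-CT-ER, while VCaP-CT-BR-ER gave 0 as well.

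**Figure D2:**
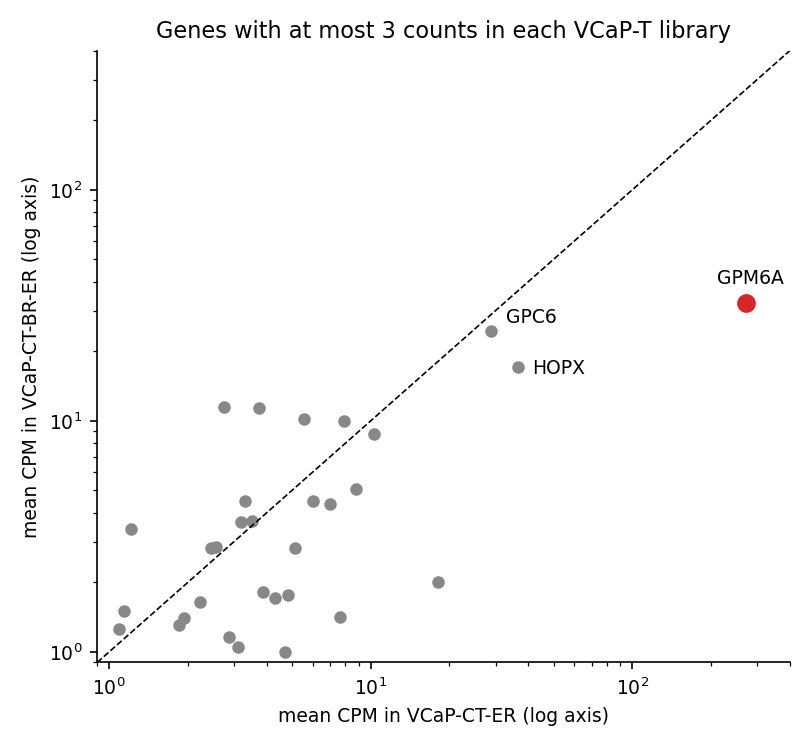
Mean CPM in VCaP-CT-ER (x axis) and VCaP-CT-BR-ER (y axis), both on log axes, of the 31 genes with at most 3 counts in each VCaP-T library and at least 1 CPM in both sublines. Each point is a gene, the dashed line marks equal levels and GPM6A is in red, at 272 and 32.3 CPM.

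GPM6B was present in all 15 libraries and differed between the sublines by a few-fold. The VCaP-T libraries held 70, 56 and 75 counts, and the VCaP-CT libraries 82, 106 and 106. The VCaP-CT-BR libraries held 235, 204 and 223 counts. The VCaP-CT-ER libraries held 337, 401 and 326, and the VCaP-CT-BR-ER libraries 382, 338 and 292. The ranges of both ENZ-resistant sublines overlapped on the CPM scale, and each of the other sublines lay apart from all others.

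The mean level of GPM6B was 1.74 ± 0.203 CPM in VCaP-T. VCaP-CT stood at 2.82 ± 0.299 CPM, and VCaP-CT-BR at 5.65 ± 0.392. The level was 7.81 ± 0.739 CPM in VCaP-CT-ER, while VCaP-CT-BR-ER had 8.69 ± 0.906. GPM6B thus shared with GPM6A the order of the first 3 sublines with both ENZ-resistant sublines above them, a pattern without overlap found in 204 of the 19621 tested genes (1.04%). Unlike those of GPM6A, its ranges in both ENZ-resistant sublines overlapped.

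GPM6B was tested with the edgeR quasi-likelihood test and Benjamini-Hochberg adjustment over all tested genes. The levels of these sublines were known when the gene was taken up, and many genes moved, so each call is set beside the share of all tested genes that passed an adjusted p of 0.05. Going from VCaP-T to VCaP-CT, GPM6B rose by a log2 fold change of 0.70 (SE 0.146, adjusted p = 0.00027), where 65.3% of the tested genes were called, 33.1% as rises. In the direct ENZ step it rose by 1.47 (SE 0.117, adjusted p = 6.66e-10), where 60.9% were called, 29.6% as rises. This was a 2.76-fold rise, and 95.1% of the tested genes had a lower log2 fold change in that step.

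Between VCaP-CT and its bicalutamide-resistant derivative, GPM6B rose by 1.00 on the log2 scale (SE 0.123, adjusted p = 7.46e-07), where 53.2% of genes were called, 26.1% as rises and 27% as falls, and 96.4% had a lower log2 fold change. In the second ENZ step it rose by 0.62 (SE 0.105, adjusted p = 5.81e-05), where 42.9% were called, 21.2% as rises, and 89.3% had a lower value. GPM6B therefore rose in each of the 4 steps of the derivation, by 1.54-fold to 2.76-fold. These contrasts share the VCaP-CT or VCaP-CT-BR libraries and are not independent of each other.

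The rise of GPM6B under ENZ was larger in the direct step than in the second. The difference between both ENZ steps was 0.84 on the log2 scale (SE 0.159, adjusted p = 0.000157), where 49.7% of the tested genes were called, 24.5% with the higher log2 fold change in the direct step. VCaP-CT-ER also lay above VCaP-CT-BR by 0.47 (SE 0.105, adjusted p = 0.00072), where 55.9% were called, 27.1% as higher. At the end levels, VCaP-CT-BR-ER exceeded VCaP-CT-ER by 0.16 (SE 0.101, adjusted p = 0.22, 95% interval -0.04 to 0.35), where 45.9% were called. This difference did not pass the test, and the interval leaves a difference in either direction.

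The balance between the pair differed by subline. On the RPKM scale, which allows levels of different genes to be compared, the ratio of GPM6A to GPM6B was 0 in VCaP-T. It was 0.0592 in VCaP-CT, and VCaP-CT-BR gave 0.142. The ratio was 28.2 in VCaP-CT-ER, between 25.5 and 30.3 over its libraries, whereas VCaP-CT-BR-ER gave 3.03, between 2.72 and 3.53. GPM6B was thus the more abundant of the pair in every library of VCaP-T, of VCaP-CT and also of VCaP-CT-BR, and GPM6A in every library of both ENZ-resistant sublines.

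A divergent transcript, GPM6A-DT, lies inside the body of GPM6A on the plus strand (chr4:175790307-175812189) and shares none of its exon bases. It starts 2.92 kb from RefSeq start 3 of GPM6A, whose promoter window is shown above. Its counts were 44, 53 and 44 in VCaP-CT-ER against 0, 0 and 1 in VCaP-CT. The VCaP-CT-BR-ER libraries held 1, 3 and 1, and each library of VCaP-T and VCaP-CT-BR held 0. GPM6A-DT was thus above 3 counts in VCaP-CT-ER only. Its mean there was 12.0-fold above the mean floor of 3 counts per library in VCaP-CT, and the lowest bound from single libraries was 10.1-fold. Of the counts of both genes, GPM6A-DT took 0.380% in VCaP-CT-ER (exact binomial interval 0.320% to 0.448%), compared with 0.133% for VCaP-CT-BR-ER (0.0432% to 0.310%). These intervals pool 3 libraries and cover counting error only, and the shares rest on the GPM6A counts that chose the gene. The counting used no strand, and reads of unspliced GPM6A RNA and of GPM6A-DT cannot be told apart by it.

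The 10 nearest tested genes on each side were set beside each member. Around GPM6A they reached 2.26 Mb towards lower and 7.50 Mb towards higher coordinates, and the nearest, WDR17, a WD repeat gene, began 63.2 kb beyond GPM6A. In the direct ENZ step, 13 of these 20 genes rose and 0 fell in the edgeR test, with a median log2 fold change of 0.46 against -0.02 over all tested genes, of which 29.6% rose and 31.2% fell. An unadjusted p under 0.05 gave 0 falls as well, as did DESeq2, and the lowest log2 fold change was -0.47. In the second ENZ step, 3 rose and 4 fell, with a median of 0.01, where 21.2% of all genes rose and 21.7% fell. Under bicalutamide, in VCaP-CT-BR against the same VCaP-CT libraries, 11 rose and 1 fell, with a median of 0.69 against -0.02 over all genes, of which 26.1% rose and 27% fell.

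WDR17 stood at 4.88 ± 0.748 CPM in VCaP-T and at 1.79 ± 0.00649 in VCaP-CT, a log2 fold change of -1.45 (SE 0.145, adjusted p = 1.75e-08). It then rose to 7.73 ± 0.767 CPM in VCaP-CT-ER, by 2.11 on the log2 scale (SE 0.137, adjusted p = 2.23e-11). In the bicalutamide lineage it was at 8.42 ± 0.886 CPM in VCaP-CT-BR compared with 7.34 ± 0.746 for VCaP-CT-BR-ER, a log2 difference of -0.20 that did not pass the test (SE 0.110, adjusted p = 0.159). WDR17 was therefore already at its upper level in VCaP-CT-BR, where GPM6A was at 0.994 CPM. HPGD, which encodes the enzyme that inactivates prostaglandins, ends 1109.8 kb below GPM6A and fell from 2025 ± 90.0 CPM in VCaP-T to only 21.3 ± 2.73 in VCaP-CT, while GPM6A went from 0 to 0.202 CPM. It then rose to 232 ± 18.3 CPM in VCaP-CT-ER, by 3.44 on the log2 scale (SE 0.0797, adjusted p = 7.51e-19), and in the second ENZ step from 63.7 ± 4.05 to 110 ± 3.68 CPM, by 0.79 (SE 0.0717, adjusted p = 1.31e-08).

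Around GPM6B, 15 of the 20 nearest genes rose and 2 fell in the direct ENZ step, with a median of 0.44, where 29.6% of all genes rose and 31.2% fell. In the second, 8 rose and 1 fell, with a median of 0.12, where 21.2% of all genes rose and 21.7% fell. Its closest neighbour OFD1, a gene of the centrosome and cilium, ends 1.68 kb below GPM6B. OFD1 rose by 0.33 in the former (SE 0.0605, adjusted p = 6.89e-05) and fell by 0.28 in the latter (SE 0.0589, adjusted p = 0.000647), where GPM6B rose. ASB9, a gene of the ankyrin repeat and SOCS box family, rose more than any other neighbour of GPM6B in the direct step, from 4.39 ± 0.406 to 88.9 ± 1.47 CPM. Its level was 3.63 ± 0.152 CPM in VCaP-CT-BR-ER, so that ASB9 separated both ENZ-resistant sublines while GPM6B did not.

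**Figure D3:**
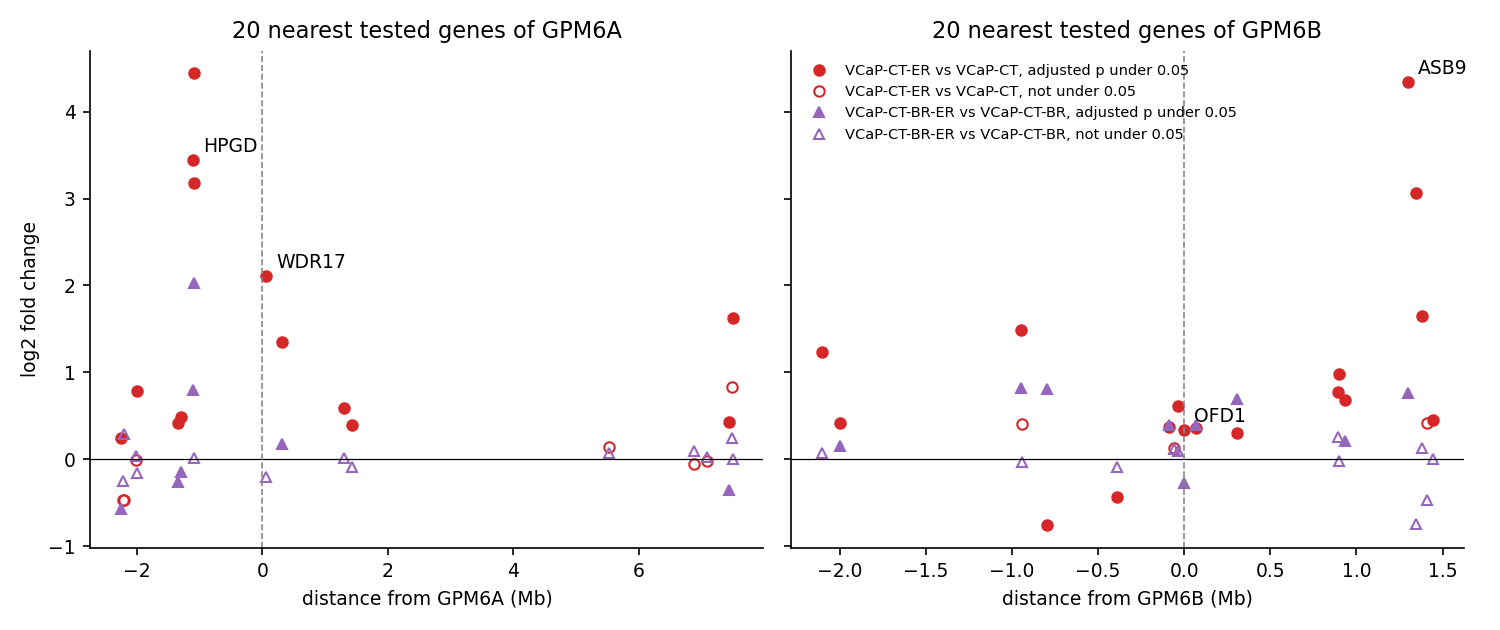
Log2 fold changes of the 20 nearest tested genes of GPM6A (left) and GPM6B (right) against their distance from the gene in Mb. Red circles are VCaP-CT-ER against VCaP-CT and purple triangles VCaP-CT-BR-ER against VCaP-CT-BR, filled where the adjusted p was under 0.05. Most red circles lie above 0, with 13 rises around GPM6A and 15 around GPM6B.

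Proteins that act with the M6 pair were followed as a list of 13 genes. It holds RUFY3, which links GPM6A to the small GTPases of the RAP2 group in neurons, the RAP2 genes themselves, the RAC1 activators TIAM1 and TIAM2, actin regulators, the opioid receptor gene OPRM1 and the serotonin transporter gene SLC6A4, a partner of GPM6B. OPRM1 was at 0 in all libraries, and 12 genes were tested. In the direct ENZ step, 7 rose and 4 fell with a median log2 fold change of 0.20 against -0.02 over all genes, of which 29.6% rose and 31.2% fell. In the second ENZ step, 5 rose and 3 fell with a median of 0.13 against 0.00, where 21.2% of all genes rose and 21.7% fell. There were 3 rises without VCaP-CT-BR replicate 3 or without replicate 2 of VCaP-CT-BR-ER, and 1 fall without VCaP-CT-BR replicate 1.

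RAP2B rose and TIAM2 fell in both ENZ steps. RAP2B went from 24.5 ± 0.691 to 90.4 ± 2.85 CPM in the direct step, a rise of 1.89 on the log2 scale (SE 0.0571, adjusted p = 6.55e-17). In the second step it went from 29.2 ± 1.38 to 79.4 ± 2.5 CPM, a rise of 1.45 (SE 0.0560, adjusted p = 1.70e-14). TIAM2 fell by 1.91 (SE 0.103, adjusted p = 1.12e-12) and by 1.39 (SE 0.108, adjusted p = 1.30e-09), and stood near 4 CPM in both ENZ-resistant sublines, at 4.17 ± 0.626 and 3.97 ± 0.506. RAP2A rose by 0.94 and 0.28 (adjusted p = 2.17e-10 and 0.00204), and PIANP, a neural membrane protein gene, by 1.38 and 1.72 (adjusted p = 3.00e-05 and 7.37e-05). PIANP was low, with 1.02 ± 0.314 CPM in VCaP-CT and 2.65 ± 0.105 in VCaP-CT-ER. From VCaP-CT to VCaP-CT-BR it fell by 1.22 (adjusted p = 0.00305), to 0.430 ± 0.279 CPM, and VCaP-CT-BR-ER had 1.44 ± 0.258. RUFY3 fell by 0.62 in the direct step (adjusted p = 1.31e-08), as did TIAM1 by 0.91 and PAK1 by 0.73. RAC1 and CDC42, small GTPases that act on actin, rose by 0.38 and 0.21 in the same step.

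Genes of filopodia and growth cones, the structures in which GPM6A is best known, were followed as a list of 22 genes. GAP43, the classical growth cone protein, was at 0 in all libraries, and 21 genes were tested. In the direct ENZ step, 7 rose and 13 fell, with a median of -0.26, where 29.6% of all genes rose and 31.2% fell. In the second ENZ step, 9 rose and 5 fell, with a median of 0.10, where 21.2% of all genes rose and 21.7% fell. The list did not move in 1 direction, and in the latter step 2 genes fell without VCaP-CT-BR replicate 1 or without replicate 3 of VCaP-CT-BR-ER, and 3 without VCaP-CT-BR replicate 3 or without replicate 1 of VCaP-CT-BR-ER.

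Of this list, MARCKS, DIAPH2, FMN2, DPYSL2 and EVL rose in both ENZ steps. DIAPH2, a formin that nucleates actin filaments, rose by 1.48 (SE 0.0682, adjusted p = 7.69e-14) and 0.90 (SE 0.0673, adjusted p = 6.64e-10). FMN2, another formin, rose by 0.74 and 0.85 (adjusted p = 8.35e-06 and 2.09e-06), and DPYSL2, a collapsin response mediator, by 0.69 and 0.74 (adjusted p = 9.52e-09 and 9.68e-09). MARCKS, a membrane-bound actin regulator, rose by 1.70 and 0.33, and EVL by 0.71 and 0.17, the last with an adjusted p of 0.0147 that became 0.0565 without VCaP-CT-BR replicate 1. MYO10, the motor that carries cargo to filopodium tips, fell by 0.62 in the direct step (SE 0.0506, adjusted p = 1.02e-09) and rose by 1.34 in the second (SE 0.0504, adjusted p = 1.09e-14). DBN1, an actin-binding protein gene of dendritic spines, fell by 1.52 and 0.54 (adjusted p = 2.60e-11 and 0.00014). BASP1 and DPYSL5 fell by 2.57 and 1.20 in the direct step (adjusted p = 7.28e-08 and 4.03e-13). BASP1 was low, with 1.23 ± 0.0915 CPM in VCaP-CT and 0.205 ± 0.00543 in VCaP-CT-ER, where libraries held 8 to 10 counts.

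**Figure D4:**
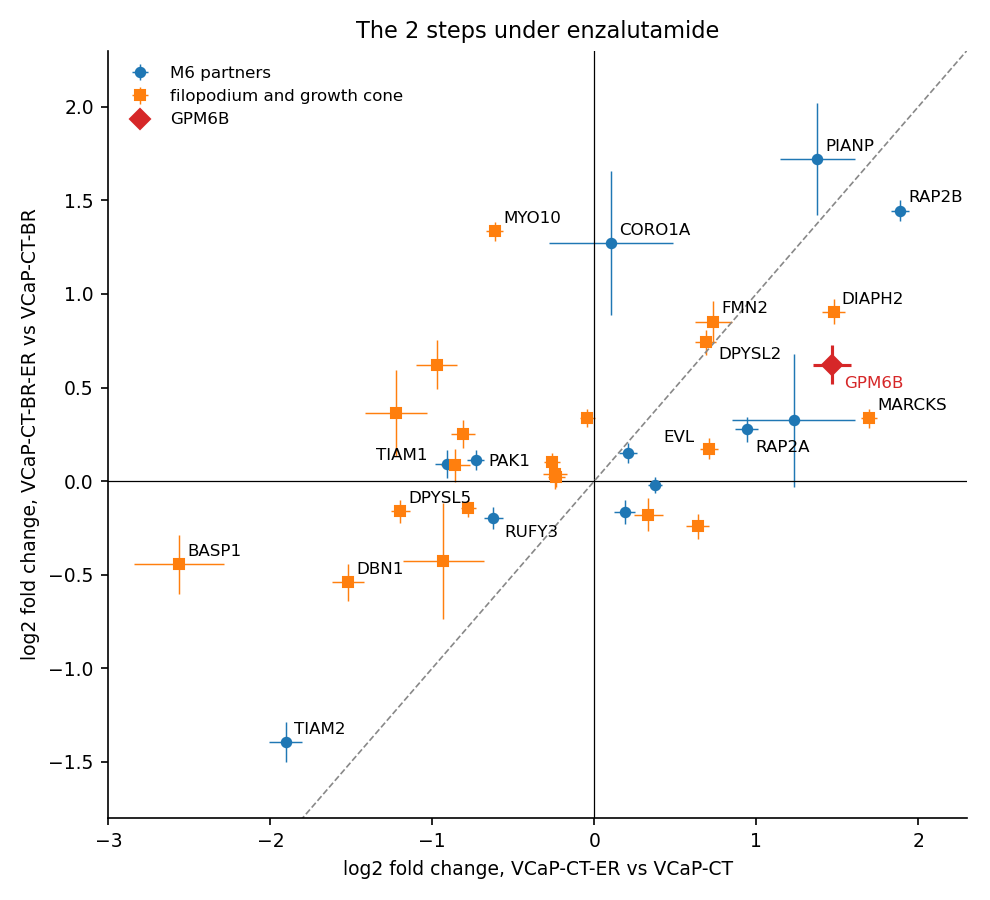
Log2 fold change of VCaP-CT-ER against VCaP-CT (x axis) and of VCaP-CT-BR-ER against VCaP-CT-BR (y axis) for GPM6B (red diamond), 12 genes of M6 partners (blue circles) and 21 genes of filopodia and growth cones (orange squares). Bars are 1 SE and the dashed line marks equal changes. RAP2B and PIANP lie to the upper right, TIAM2 to the lower left and MYO10 to the upper left.

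Other lists gave the setting of these levels, and their counts stand against 60.9% of all tested genes called in the direct ENZ step (29.6% rose and 31.2% fell) and 42.9% in the second (21.2% and 21.7%). Of 5 lipid raft genes, FLOT1 was listed at 0 in all libraries, and of the 4 tested 1 rose and 2 fell in the direct ENZ step. The summed level of 13 neuronal markers was 73.8 to 80.3 CPM in VCaP-CT-ER, while VCaP-CT-BR-ER had 73.3 to 73.8. It was 73.5 to 77.3 CPM in VCaP-T, lower at 49.9 to 52.7 in VCaP-CT, and 77.0 to 82.4 for VCaP-CT-BR. Of its 9 tested genes, 2 rose and 4 fell in the direct ENZ step, and in the second 0 rose (0 at an unadjusted p under 0.05 and 0 by DESeq2) and 4 fell. These are shares of 66.7% and 44.4%, near those of all genes. The sum joins markers that differed between sublines in opposite directions. NCAM1, a neural cell adhesion gene, rose by 3.93 on the log2 scale in the direct step (SE 0.0962, adjusted p = 1.84e-18), from 1.90 ± 0.0527 to 29.0 ± 0.401 CPM, and fell by 1.04 in the second (SE 0.121, adjusted p = 5.32e-07). MAP2, a microtubule-associated protein gene, stood at 6.43 ± 0.784 CPM in VCaP-T, but its level had already reached 33.6 ± 1.38 by VCaP-CT. The direct ENZ step added 0.18 on the log2 scale (adjusted p = 0.0297), giving 38.1 ± 3.12 CPM. SYP, a synaptic vesicle gene, had the opposite order. Its level was 32.96 ± 0.866 CPM in VCaP-T, and VCaP-CT was already down at 6.11 ± 0.681. The direct step changed SYP by -0.27 (adjusted p = 0.0412), to 5.06 ± 0.565 CPM. In the second step SYP fell by 1.48 (adjusted p = 5.00e-09), while MAP2 did not pass the test (adjusted p = 0.952).

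Myelin and oligodendrocyte markers summed to between 109 and 126 CPM in all libraries, and 1 of 6 tested genes rose and 0 fell in the direct ENZ step in edgeR, with 0 falls at an unadjusted p under 0.05 and by DESeq2. Astrocyte markers summed to 7.22 to 7.57 CPM in VCaP-CT-ER, against 21.0 to 23.4 CPM for VCaP-CT-BR-ER. Nearly all of these sums was SLC1A2, at 7.05 ± 0.336 and 22.4 ± 1.26 CPM. Of 3 tested genes, 0 rose and 1 fell in the direct ENZ step, and the second gave 0 calls. These counts of 0 were also 0 at an unadjusted p under 0.05 and by DESeq2. Neuroendocrine markers were highest in VCaP-T, at 290 to 305 CPM. Their sum had already dropped to 88.0 to 96.8 CPM by VCaP-CT, where CHGB stood at 0.888 ± 0.170 against 159 ± 6.31 before. After the direct ENZ step the sum was 78.5 to 80.4 CPM. The second step began at 69.1 to 71.0 CPM and ended at 64.4 to 69.5. These sums hide opposite changes in the direct step. SCG2 went from 0.200 ± 0.0696 to 12.3 ± 1.42 CPM, and INSM1 from 20.2 ± 1.53 to 4.63 ± 0.177. Of the 5 tested neuroendocrine genes, 2 rose and 3 fell in the direct ENZ step, and 0 rose and 2 fell in the second, with 1 rise at an unadjusted p under 0.05 and 1 by DESeq2. Prostate luminal markers summed to 15900 to 16691 CPM in VCaP-CT-ER, with 10631 to 10897 CPM for VCaP-CT-BR-ER, with 3 rises and 5 falls, and 3 rises and 2 falls, of 11 genes in the same steps, which are shares of 72.7% and 45.5%. The part of these markers in the levels of GPM6A and GPM6B was not tested.

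The genes most like each member over the 15 libraries were ranked by the Pearson correlation of log2 CPM, as a description in which libraries of one subline share their derivation and the points are not independent. For GPM6A, among 14596 genes, they were AMIGO2 (r = 0.995), PTGR1 (0.994), PKIB (0.990), DNAJB11 (0.989) and DIAPH2 (0.988). AMIGO2, an adhesion molecule of neurons, had 1.55 ± 0.0659 CPM in VCaP-T against 11.8 ± 1.31 in VCaP-CT-ER, with 7.91 ± 0.158 for VCaP-CT-BR-ER. All 5 genes were present in VCaP-T. PCDH19, which was near 0 in VCaP-T like GPM6A, stood at place 11 (r = 0.987). For GPM6B, among 13013 genes, they were C18orf54 (r = 0.984), BBX (0.983), POLI (0.982), PYGO2 (0.980) and PRDX4 (0.979). PRDX4, a peroxiredoxin of the endoplasmic reticulum, had 82.1 ± 5.14 CPM in VCaP-T against 178 ± 7.35 in VCaP-CT-ER, with 199 ± 8.87 for VCaP-CT-BR-ER. GPM6B itself stood at place 387 in likeness to GPM6A (r = 0.898), while RAP2B stood at place 16 (r = 0.984).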

How the data were processed

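Bulk RNA-seq of 15 libraries, 3 from each of 5 VCaP sublines, was analysed. The authors aligned paired reads to GRCh38 with STAR 2.5.4b and deposited unnormalised counts per gene from featureCounts 1.6.2 on GENCODE 28, without regard to strand. Symbols came from GENCODE 44 by Ensembl identifier, matching 57754 of 58381 genes. Library totals ran from 33665716 to 46935279 counts. Counts were scaled by TMM and tested with the edgeR 4.0.16 quasi-likelihood test (R 4.3.3) for genes kept by filterByExpr with min.count = 10, using a term per subline over all 15 libraries, and Benjamini-Hochberg adjustment over 19621 genes with a threshold of 0.05. RPKM used the deposited exon length. SE is the log2 fold change divided by the root of F. The fit was tested on simulated data.

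The members and lists were chosen with earlier results of these data known. Named were GPM6A and GPM6B; list members, for partners and filopodia those called in the contrast described; the 5 genes most correlated with each member, at an average log2 CPM of at least 0 (GPM6A) or 1 (GPM6B); the 10 nearest tested genes per side; and genes overlapping a member. Alternatives were 75th percentile scaling, library totals, DESeq2 1.42.0, no filter, a replicate block, fits of only the sublines compared, each library left out, Spearman correlation, and stricter limits for the repeated rule. Promoter windows came from RefSeq on GRCh38.p14. Figures were drawn with matplotlib 3.10.9. No protein sequence was used here, and an item that the rule also named is not reported here.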

Additional observations from a re-analysis of the deposited data

Results flagged for a closer look

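The direct ENZ step (VCaP-CT-ER against VCaP-CT) and the second ENZ step (VCaP-CT-BR-ER against VCaP-CT-BR) differed for GPM6B and for 19 of the other 25 genes followed with it, by the edgeR test of the difference between the steps (49.7% of all tested genes passed it). Many of these genes were named because a step called them, so this count cannot be read against that share. The log2 difference, positive where the step from VCaP-CT was the larger rise or the smaller fall, was 0.84 for GPM6B (adjusted p = 0.000157). It was 0.66 for RAP2A, 0.44 for RAP2B, 0.35 for RAP2C and 0.40 for RAC1. It was -0.42 for RUFY3, -1.001 for TIAM1, -0.51 for TIAM2 and -0.84 for PAK1.

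Among genes of filopodia and growth cones, the difference was 0.57 for DIAPH2, 1.36 for MARCKS and 0.54 for EVL. It was -1.95 for MYO10, -2.12 for BASP1, -0.98 for DBN1 and -1.04 for DPYSL5. Among neighbours it was 2.65 for HPGD and 2.31 for WDR17, both near GPM6A, and 0.61 for OFD1 and 3.58 for ASB9, both near GPM6B. The causes of these differences were not tested.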

How the results depend on the processing

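GPM6B kept its direction and its side of the threshold in all 7 comparisons under every alternative, in 140 of 140 refits, with log2 fold changes between 1.39 and 1.56 for VCaP-CT-ER against VCaP-CT and between 0.77 and 0.93 for the difference between the ENZ steps. The mean CPM of both genes moved by less than 1 SD under both other scalings. Replicate numbers did not pair the libraries (mean correlation -0.00542 for the same number, range -0.473 to 0.468, against 0.00279 for different numbers), and with the replicate block GPM6B gave 1.47 for VCaP-CT-ER against VCaP-CT and 0.62 for VCaP-CT-BR-ER against VCaP-CT-BR. In the second ENZ step, the M6 partners that rose numbered between 3 and 6 and those that fell between 1 and 3 with single libraries left out, and the filopodium genes that fell numbered between 2 and 5, 3 with DESeq2 and 3 without a filter, against 5. Counts of other lists moved by over 1.5 times in 86 of 2394 refits of all lists, those named here included. The rule for GPM6A gave 12 genes at 0 counts in every VCaP-T library and 7 at 5 CPM or more in both sublines, against 31. Spearman correlation kept 1 of the 5 genes most like GPM6A and 0 of those most like GPM6B. Of 1197 refits of other named genes, 41 lost the call, most of them for DPYSL5 and RAP2C in the second ENZ step, and 0 turned direction. With 3 libraries of 1 derivation per subline, and 5 to 8 counts of GPM6A in VCaP-CT, its folds over VCaP-CT have the widest range.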
